A study of Mus musculus with 17 samples.

Results

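The contractile apparatus of smooth muscle was followed through mouse lung in 10 genes, picked by symbol from a table of 54146 genes. They are the actins Acta2 and Actg2, the myosin heavy chain Myh11, the thin filament proteins Tagln, Cnn1, Smtn and Lmod1, the intermediate filament protein Des, the filament linker Synpo2 and the transcriptional coactivator Myocd. All 10 were found, all 10 had enough counts to be tested, and the rule that picks them uses symbols alone, though the set was proposed with earlier results of these data known. In lungs of Clic4 knockout (KO) mice, 10 of the 10 stood higher than in wild type (WT) at day 0 and 9 of the 10 at day 14, by differences of up to 1.48-fold. Of all genes tested, 50.2% and 50.3% stood higher. Most of the 10 genes vary together across libraries, so these are not counts of separate observations. No single gene of the 10 passed the adjusted threshold of the main test in any comparison. Smtn was the exception in direction, lower in KO than in WT at day 14.

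Smooth muscle in the lung lines the airways and the larger vessels and sets their width. It contracts when calcium leads to phosphorylation of the myosin light chain, so that Myh11 filaments pull on actin filaments that are anchored at dense bodies. The genes of this apparatus are commonly transcribed together by serum response factor (SRF), a protein that binds a DNA element called the CArG box, with Myocd as its muscle coactivator.

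The study asks what CLIC4, a chloride intracellular channel protein, does in the host lung in breast cancer metastasis. Lung RNA came from 4 groups, all carrying the strain label FVB/6DT1, in which FVB is an inbred mouse strain and 6DT1 a mammary tumour line: 4 WT and 2 Clic4 KO libraries at day 0, from mice of 6 weeks, and 6 WT and 5 Clic4 KO libraries at day 14, from mice of 8 weeks. Age and day therefore cannot be told apart, and what the mice received between the days is not stated in the labels, nor are the cells in which Clic4 was deleted. The group sizes are those of the sample labels; the series' own design text gives other sizes. Nothing ties a library to an animal, so the p-values speak for the variation among libraries only, part of which may come from sample handling. Each sample title holds a B number of its own, which is not said to be an animal. The titles also hold S numbers, in separate runs for each of the 4 groups, whose meaning is not stated. Any handling that goes with the S numbers cannot be told apart from genotype or from day. The numbers given to libraries below only name them within a group. In bulk lung RNA, fewer smooth muscle cells and less RNA per cell cannot be told apart.

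Libraries held 20607811 to 35743830 counts, and levels are given as CPM, counts scaled to library size. Clic4 itself stood at 943 ± 13.1 CPM (SD, n = 4) in WT and 326 ± 2.17 (SD, n = 2) in KO at day 0, and at 1043 ± 154 (SD, n = 6) and 336 ± 38.6 (SD, n = 5) at day 14, with every KO library below every WT library. KO day 14 library 5 stood apart: it had the fewest counts and the chi-square distances per gene to the other libraries of its group were 54.4 to 62.9, against at most 38.2 between the others of that group. It also held 32.9 summed CPM of skeletal muscle markers, against 6.98 to 13.2 in the other 16 libraries. KO over WT at day 14 is also given without it, for the median and for the genes whose highest or lowest value came from leaving it out.

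Since CArG boxes are the element these genes are known to share, the DNA upstream of 3 of them is shown: Acta2 and Lmod1, the genes with matches, and Smtn, a gene without one whose sign at day 14 differed from the rest. Each run is the 250 bases before the RefSeq start (GRCm38.p6), read 5′ to 3′ on the gene's strand, with capitals on 10-base matches to the CArG box with 1 mismatch. Acta2 (minus strand) is chr19:34255374-34255623, Lmod1 (plus strand) is chr1:135324563-135324812 and Smtn (minus strand) is chr11:3539293-3539542. By the GENCODE coordinates given below, the Acta2 run lies mostly and the Smtn run wholly inside the gene. Windows at starts further upstream were not searched.
Acta2: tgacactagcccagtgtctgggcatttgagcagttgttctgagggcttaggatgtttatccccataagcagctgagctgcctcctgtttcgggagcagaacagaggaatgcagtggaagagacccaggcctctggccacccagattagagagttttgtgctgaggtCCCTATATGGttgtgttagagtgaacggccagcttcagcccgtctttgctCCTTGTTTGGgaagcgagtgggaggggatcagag
Lmod1: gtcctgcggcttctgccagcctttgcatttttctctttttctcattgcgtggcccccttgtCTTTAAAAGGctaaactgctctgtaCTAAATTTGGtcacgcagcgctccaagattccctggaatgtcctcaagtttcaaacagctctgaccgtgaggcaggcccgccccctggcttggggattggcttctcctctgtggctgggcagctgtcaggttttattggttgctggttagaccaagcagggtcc
Smtn: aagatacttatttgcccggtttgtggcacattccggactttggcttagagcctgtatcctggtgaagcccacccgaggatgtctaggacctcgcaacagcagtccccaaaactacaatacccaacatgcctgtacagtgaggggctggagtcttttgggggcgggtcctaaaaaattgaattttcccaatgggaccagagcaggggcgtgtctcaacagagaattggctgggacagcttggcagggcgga
Windows of 300 bases, 250 before and 50 after the start, were searched; the box reads the same on both strands. They were at hand for 6 of the 10 genes. Acta2 had 2 matches, beginning 84 and 34 bases before the start, and Lmod1 had 2, beginning 189 and 164 bases before it. Cnn1, Des, Synpo2 and Smtn had no match in this window; Cnn1 and Des, like Acta2 and Lmod1, had both KO libraries above all WT libraries at day 0. No window of the 6 held a box without a mismatch; of 32851 mouse promoter windows of the same length, 1.63% did, 21.1% held a match with at most 1 mismatch and 3.7% held 2 or more such matches. A match is a run of letters and no measured binding. A link between matches and the KO over WT values was not tested.

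Levels were compared between genes in FPKM, fragments scaled to transcript length and to library size, as the authors deposited it. Tagln, transgelin, which binds actin filaments, was the most abundant at a median of 130.8 FPKM over the 17 libraries (113 to 162). Acta2, the vascular and airway smooth muscle actin, followed at 109.9 (86.6 to 143), and Des, the subunit of muscle intermediate filaments, at 69.9 (56.8 to 88.9). Each of these 3 lay above the next in 17 of 17 libraries.

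In the middle of the order, Smtn, smoothelin, which lies on actin filaments of contractile cells, had a median of 35.5 FPKM, Myh11 33.0 and Cnn1, calponin, an actin-binding inhibitor of the myosin motor, 29.6. These 3 did not separate: Smtn exceeded Myh11 in 12 of 17 libraries and Myh11 exceeded Cnn1 in 14 of 17. Actg2, the enteric smooth muscle actin, followed at 20.9, Synpo2 at 8.09, Lmod1, leiomodin 1, which starts new actin filaments, at 4.5 and Myocd at 0.79 FPKM. Each of these 4 lay below the one before it in 17 of 17 libraries. Myocd rested on 70 to 127 counts a library and Acta2 on 4005 to 7113, so Myocd was the least precisely measured.

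**Figure D1:**
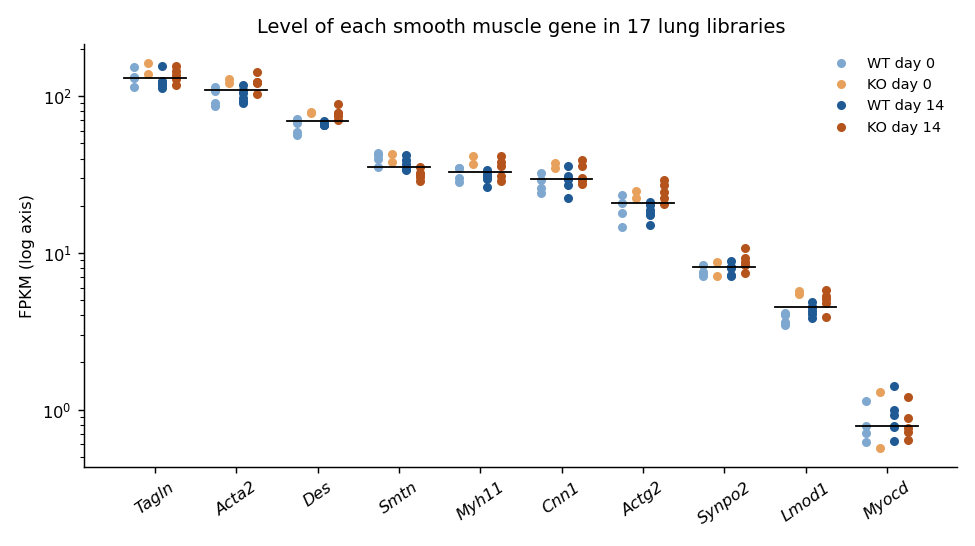
FPKM of the 10 genes in each of 17 lung libraries (points, coloured by genotype and day) on a log axis; bars mark the median over all libraries. Medians run from 130.8 for Tagln to 0.79 for Myocd, and Smtn, Myh11 and Cnn1 overlap.

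The annotation (GENCODE M21, GRCm38) places the 10 protein-coding genes, with their identifiers in the files, as follows: Acta2 (ENSMUSG00000035783.8) at chr19:34241090-34255590, Actg2 (ENSMUSG00000059430.14) at chr6:83512905-83536265, Myh11 (ENSMUSG00000018830.10) at chr16:14194535-14291372, Tagln (ENSMUSG00000032085.5) at chr9:45929619-45936058, Cnn1 (ENSMUSG00000001349.5) at chr9:22099216-22109630, Smtn (ENSMUSG00000020439.17) at chr11:3517523-3540612, Lmod1 (ENSMUSG00000048096.7) at chr1:135324807-135368065, Des (ENSMUSG00000026208.9) at chr1:75360329-75368579, Synpo2 (ENSMUSG00000050315.13) at chr3:123076519-123236149 and Myocd (ENSMUSG00000020542.18) at chr11:65176561-65269989. Tagln shares 1241 exonic bases with the antisense gene Gm48529, and whether the counting used strand is not given in the sources used here, so reads of this pair may be split between them. Gm48529 held 5.84 to 21.9 CPM, against 152 to 216 for Tagln. Its median was 14.7 CPM in WT and 8.00 in KO at day 0, and 10.4 and 7.45 at day 14. That is the opposite direction to Tagln, with overlapping libraries at both days. Whether reads moved between this pair in the Tagln values was not tested. Tagln also shares 108 exonic bases with the protein-coding gene Pcsk7 on the opposite strand. Smtn shares 714 with Gm11946 on the opposite strand, which held 0.0995 to 0.791 CPM. Des shares 220 with the antisense gene Gm15179, which held 0 to 0.102 CPM. The same limit on strand holds for these pairs. The 2 smooth muscle actins shared no stretch of 50 identical bases with each other, so reads of that length can be assigned to one or the other.

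At day 0, all 10 genes had a positive log2 fold change of KO over WT, with a median of 0.31 against 0.00 over all 19557 genes tested. Of all genes, 50.2% were positive. Since most of the 10 genes vary together across libraries, the counts below are not of separate observations. By edgeR's quasi-likelihood test with Benjamini-Hochberg adjustment, 0 of the 10 were called at an adjusted p under 0.05, where 0.0256% of all genes were. At an unadjusted p under 0.05, 5 of the 10 were higher, against 3.15% of all genes. DESeq2 called 1 of the 10, Lmod1, and 0.133% of all genes; limma-voom called 0 of the 10. In 5 of the 10, both KO libraries lay above all 4 WT libraries, which was so for 8.88% of all genes.

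At day 14, 9 of the 10 had a positive log2 fold change and Smtn a negative one, with a median of 0.18 against 0.00 over all genes. Of all genes, 50.3% were positive. Again edgeR called 0 of the 10, where it called 0.107% of all genes; DESeq2 and limma-voom also called 0. At an unadjusted p under 0.05, 5 of the 10 were higher in KO, where 4.92% of all genes were, and 1 was lower, where 4.03% were. In 1 of the 10, Des, all 5 KO libraries lay above all 6 WT libraries, which was so for 0.583% of all genes. Without KO day 14 library 5 the median was 0.22, and without library 1, which held the most smooth muscle RNA of all 17, it was 0.13. The tests at day 0 and at day 14 use separate libraries but a common estimate of the spread.

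**Figure D2:**
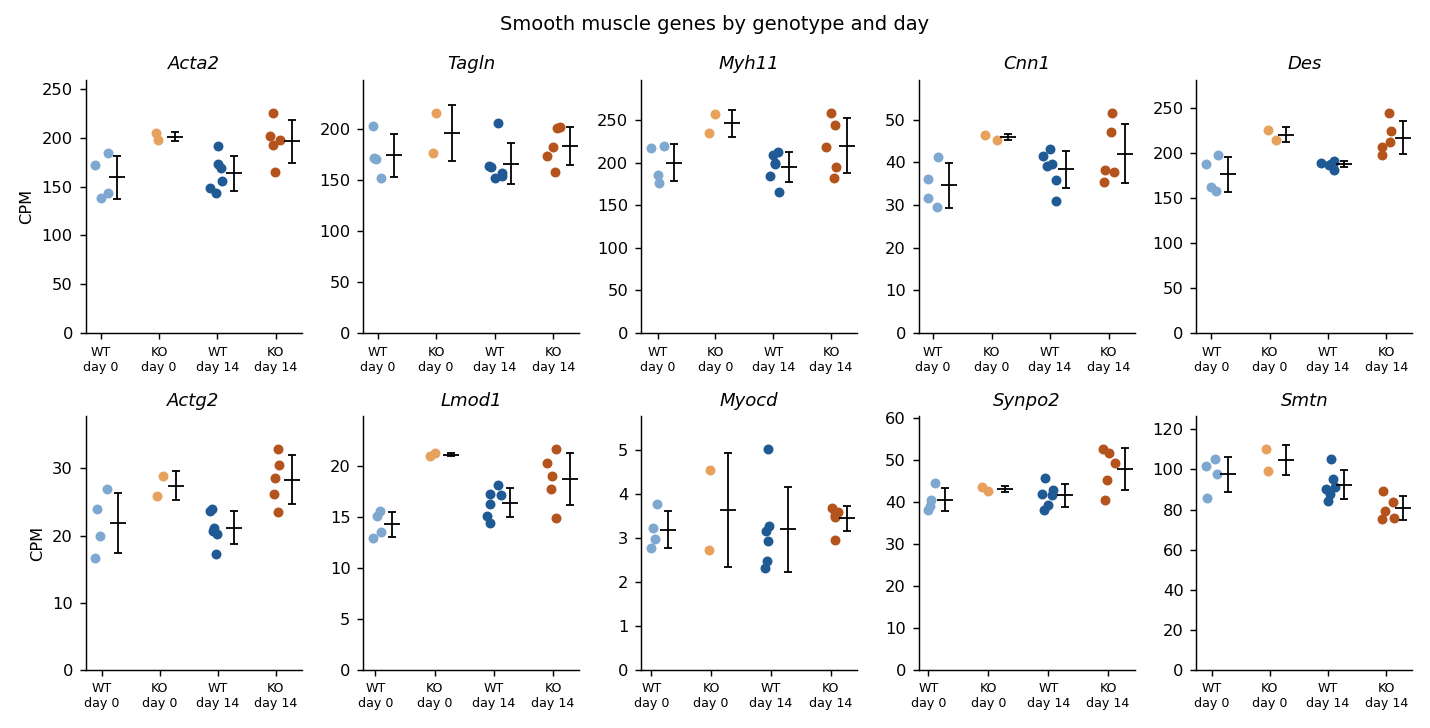
CPM of each gene by library (points) in the 4 groups, with the mean and SD beside them (n = 4, 2, 6 and 5); each axis starts at 0. Both KO libraries of day 0 lie above all WT libraries of day 0 for Acta2, Myh11, Cnn1, Des and Lmod1, and Smtn is lowest in KO at day 14.

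Of the actins, Acta2 measured 138, 184, 172 and 143 CPM in the WT libraries of day 0 and 205 and 198 in the KO libraries. At day 14 the 6 WT libraries ran from 143 through a median of 162 to 191, and the 5 KO libraries read 226, 198, 192, 164 and 202. The groups did not overlap at day 0, and at day 14 all but KO library 4 exceeded every WT library. KO over WT came to a log2 fold change of 0.34 (SE 0.128) at day 0 and 0.26 (SE 0.0905) at day 14, with edgeR adjusted p of 0.697 and 0.394.

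Actg2 measured 16.6, 26.9, 23.9 and 19.99 CPM in WT and 25.9 and 28.9 in KO at day 0. At day 14 WT ran from 17.3 through a median of 20.9 to 24.0, and KO read 32.8, 26.1, 30.5, 23.5 and 28.6. WT library 2 reached into the KO range at day 0, and KO library 4 was the only KO library inside the WT range at day 14. As log2 fold changes these are 0.33 (SE 0.164, edgeR adjusted p = 0.749) at day 0 and 0.42 (SE 0.116, edgeR adjusted p = 0.268), the largest of the 10 at day 14.

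The motor protein of the thick filament, Myh11, read 177, 219, 218 and 186 CPM in WT and 257 and 235 in KO at day 0, with no overlap. At day 14 WT ran from 165 through 199 to 212, and KO read 259, 244, 219, 195 and 182, with 3 of 5 KO libraries above all of WT. This gave log2 fold changes of 0.30 (SE 0.128) and 0.17 (SE 0.0903), with edgeR adjusted p of 0.723 and 0.601. Without KO library 5 the day 14 value was 0.23.

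Lmod1 showed the largest difference of the 10 at day 0. The WT libraries read 13.5, 15.1, 15.5 and 12.97 CPM and the KO libraries 21.2 and 21.0. The pair of KO libraries lay close together and well above WT. This was a log2 fold change of 0.57 (SE 0.124, 95% interval 0.31 to 0.83), or 1.48-fold, with an edgeR adjusted p of 0.269; DESeq2 gave an adjusted p of 0.0266. Over all the settings tried the adjusted p of this difference ran from 0.0266 to 0.740.

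At day 14 the Lmod1 libraries of WT ran from 14.4 through a median of 16.7 to 18.1 CPM and those of KO read 21.6, 20.3, 17.8, 19.0 and 14.9. Here the groups overlapped, since KO libraries 3 and 5 lay inside the WT range. The log2 fold change was 0.19 (SE 0.0881, edgeR adjusted p = 0.534), and 0.26 without KO library 5. The difference between the Lmod1 effects of the days was -0.37 (SE 0.153) on the log2 scale, with an edgeR adjusted p of 0.988.

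Cnn1 read 29.5, 36.1, 41.1 and 31.6 CPM in WT and 46.3 and 45.3 in KO at day 0, without overlap (log2 fold change 0.41, SE 0.153, edgeR adjusted p = 0.697). At day 14 WT ran from 31.0 through 39.4 to 43.2, and KO read 51.6, 37.8, 38.1, 35.4 and 47.2. KO libraries 1 and 5 were high there and the other 3 lay inside the WT range, with a log2 fold change of 0.13 (SE 0.108, edgeR adjusted p = 0.772), which was 0.05 without KO library 1.

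Tagln overlapped between the genotypes at both days. It read 171, 203, 172 and 152 CPM in WT and 177 and 216 in KO at day 0. At day 14 WT ran from 152 through 160.3 to 206, and KO read 202, 183, 174, 158 and 201. Its log2 fold changes were 0.17 (SE 0.129) and 0.14 (SE 0.0910), with edgeR adjusted p of 0.832 and 0.693. At day 0 the value depended on the KO library: 0.02 without KO library 2 and 0.31 without KO library 1. The day 14 value was 0.11 without KO library 5.

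Des was the 1 gene of the 10 whose genotypes did not overlap at either day. At day 0 it read 157, 197, 187 and 162 CPM in WT and 214 and 226 in KO. At day 14 the WT libraries lay within 181 to 191, around a median of 187, and the KO libraries read 244, 197, 212, 206 and 224. The lowest KO library lay above the highest WT library at both days. This was so for 8.88% of all genes at day 0 and 0.583% at day 14, and the share at both days was not counted. The log2 fold change of Des was 0.32 (SE 0.0856, edgeR adjusted p = 0.581) at day 0 and 0.21 (SE 0.0605, edgeR adjusted p = 0.287) at day 14.

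Synpo2, also called myopodin, which links actin filaments to their anchoring sites, differed little at day 0, with 39.0, 44.4, 40.5 and 38.1 CPM in WT and 43.5 and 42.4 in KO. At day 14 WT ran from 37.97 through 41.7 to 45.7 and KO read 51.7, 52.4, 49.1, 45.2 and 40.5. KO libraries 1, 2 and 3 lay above all of WT. Its log2 fold change was 0.09 (SE 0.0960) and then 0.20 (SE 0.0672), with edgeR adjusted p of 0.903 and 0.390, and 0.25 at day 14 without KO library 5.

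The coactivator Myocd stood between 2.32 and 5.01 CPM over all libraries. Its 2 KO libraries of day 0 read 2.72 and 4.54, on either side of the 4 WT libraries (2.77, 3.23, 3.76 and 2.97), and at day 14 the genotypes overlapped. The log2 fold change was 0.19 (SE 0.256) at day 0 and 0.11 (SE 0.181) at day 14, with edgeR adjusted p of 0.925 and 0.900. The 95% interval at day 14, -0.26 to 0.49, holds every difference found for the other 9 genes, so Myocd could not be told from them or from 0. On the authors' FPKM its day 14 value was negative (-0.06 on log2(FPKM + 1)).

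**Figure D3:**
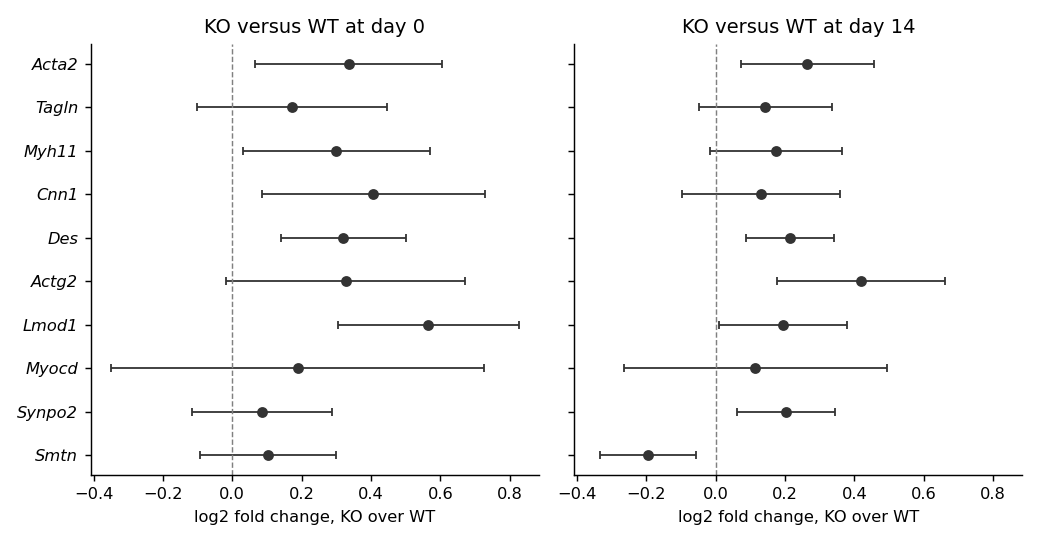
Log2 fold change of KO over WT for each gene at day 0 and day 14 (points) with 95% intervals (bars) from edgeR, on 1 shared axis; the dashed line marks no difference. Values run from 0.09 to 0.57 at day 0 and from -0.20 to 0.42 at day 14, where Smtn alone lies left of the line.

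Smtn took another course. At day 0 it read 97.5, 102, 105 and 85.6 CPM in WT and 99.3 and 110.0 in KO, which overlapped (log2 fold change 0.10, SE 0.0931, edgeR adjusted p = 0.866). At day 14 WT ran from 84.4 through 90.9 to 105 and KO read 89.1, 79.2, 83.9, 75.0 and 75.9, with 4 of the 5 KO libraries below every WT library. The log2 fold change there was -0.20 (SE 0.0657, 95% interval -0.33 to -0.06, edgeR adjusted p = 0.390). Leaving out any 1 library kept it between -0.23 and -0.16.

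Within KO, every day 14 library of Smtn lay below both day 0 libraries, as for 6.2% of all genes, with a log2 fold change of -0.38 (SE 0.0889) and an edgeR adjusted p of 0.211. DESeq2 gave an adjusted p of 0.0367, and the settings tried ranged from 0.0367 to 0.523. Within WT the same change over the days was -0.08 (SE 0.0695, edgeR adjusted p = 0.750). The difference between the 2 genotypes was -0.30 (SE 0.114), with an edgeR adjusted p of 0.988, so a different course in KO was not shown.

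Between the days, the medians lay near 0. From day 0 to day 14 in WT, 5 of the 10 had a positive and 5 a negative log2 fold change, with a median of 0.02. In KO it was 2 and 8, with a median of -0.09, and Smtn was the lowest. These 2 comparisons use the same libraries as those between genotypes. In WT edgeR called 0 of the 10 and 0% of all genes, with 1 of the 10, Lmod1, higher at an unadjusted p under 0.05 (log2 fold change 0.20, SE 0.0947), where 4.72% of all genes were, and DESeq2 and limma-voom called 0 of the 10. In KO edgeR also called 0 of the 10 and 0% of all genes, with 1 of the 10, Smtn, lower at an unadjusted p under 0.05, where 4.72% of all genes were. DESeq2 called Smtn alone, among 0.476% of all genes, and limma-voom called 0. A count of 1 among 10 is not set apart from these shares at the unadjusted p.

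The interaction, the KO effect at day 14 minus that at day 0, was called by edgeR in 0 of the 10 and in 0% of all genes. At an unadjusted p under 0.05 it was negative in 2 of the 10, Lmod1 and Smtn, where 2.03% of all genes were, and DESeq2 and limma-voom called 0 of the 10. The 8 negative and 2 positive values had a median of -0.09.

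The effect of genotype averaged over the 2 days was added after the data had been seen. It had the same sign pattern, 9 positive and Smtn at -0.05, with a median of 0.25. At an unadjusted p under 0.05, 7 of the 10 were higher in KO, where 5.27% of all genes were, and edgeR's adjusted test called 0 of the 10, where it called 0.102% of all genes. Des, at 0.27 (SE 0.0524), and Lmod1, at 0.38 (SE 0.0761), lay just outside the threshold with adjusted p of 0.0600 and 0.0605. DESeq2 called these 2, with an adjusted p of 0.00177 for each, and 0.695% of all genes; limma-voom called 0 of the 10. Acta2 stood at 0.30 (SE 0.0783) and Actg2 at 0.37 (SE 0.09999), with edgeR adjusted p of 0.187 and 0.188.

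The wider contraction pathway showed a mixed sign pattern, in lists that also hold genes made by other cells. Of 12 genes of the myosin light chains and the enzymes that act on them, 6 had a positive KO effect at day 0 and 4 at day 14 (medians -0.05 and -0.09). Of its abundant genes, Mylk, the kinase that starts contraction, stood at 0.10 (SE 0.0794) and -0.01 (SE 0.0558), and Myl6, the essential light chain, at 0.05 (SE 0.0821) and 0.00 (SE 0.0575). Myl12a, a regulatory light chain of other cells too, stood at 0.00 and -0.07. Myl9, the regulatory light chain of smooth muscle, was singled out after its values were seen, at 0.21 (SE 0.122) and 0.26 (SE 0.0858, edgeR adjusted p = 0.390).

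Of 22 other thin filament, dense body and adhesion genes, 15 were positive at day 0 and 7 at day 14 (medians 0.06 and -0.03). The 4 with the highest CPM were Tns1, tensin, at 0.11 and -0.10, Flna, filamin, at 0.05 and -0.02, Csrp1, a LIM protein of smooth muscle, at 0.10 and 0.04, and Vcl, vinculin, at 0.01 and -0.11. Lpp, an adhesion protein of smooth muscle that DESeq2 alone called at day 14, stood there at 0.17 (SE 0.0426, edgeR adjusted p = 0.187) and was picked out for that reason.

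Of 16 calcium, channel and receptor genes, 8 were positive at day 0 and 6 at day 14 (medians 0.04 and -0.03). Atp2a2, the calcium pump of the sarcoplasmic reticulum, which heart muscle also makes, stood at -0.04 (SE 0.135) and -0.25 (SE 0.0944), and the nitric oxide pathway genes Pde5a, Gucy1a1 and Gucy1b1 lay between -0.16 and -0.02. Of 16 transcriptional regulators, 8 were positive at day 0 and 4 at day 14 (medians 0.00 and -0.05). Among its abundant genes Tbx2 and Tead1 lay within -0.07 and 0.00, the receptor Notch3 at 0.14 and -0.06, and Klf4, known as a repressor of contractile genes, at -0.46 (SE 0.346) and -0.47 (SE 0.240), too variable to be told from 0.

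Of 12 other actins, myosins and relatives of the members, 7 were positive at day 0 and 3 at day 14 (medians 0.05 and -0.06). The cytoplasmic actins Actb, at 0.19 (SE 0.144) and 0.04 (SE 0.101), and Actg1, at -0.09 (SE 0.249) and -0.13 (SE 0.174), and the nonmuscle myosins Myh9, at 0.07 and -0.15, and Myh10, at 0.12 and -0.06, did not pass the test. Synpo2l, a relative of Synpo2 found in striated muscle, stood at -0.58 (SE 0.121, edgeR adjusted p = 0.0800) at day 14 and was singled out because DESeq2 called it. In these 5 lists, 78 genes in all, edgeR called 0 at either day; 3 were at an unadjusted p under 0.05 at day 0 and 15 at day 14, DESeq2 called 0 and 2, and limma-voom 0 and 0. Over all genes 6.74% and 8.95% were at an unadjusted p under 0.05, in either direction, and DESeq2 called 0.133% and 0.557%.

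**Figure D4:**
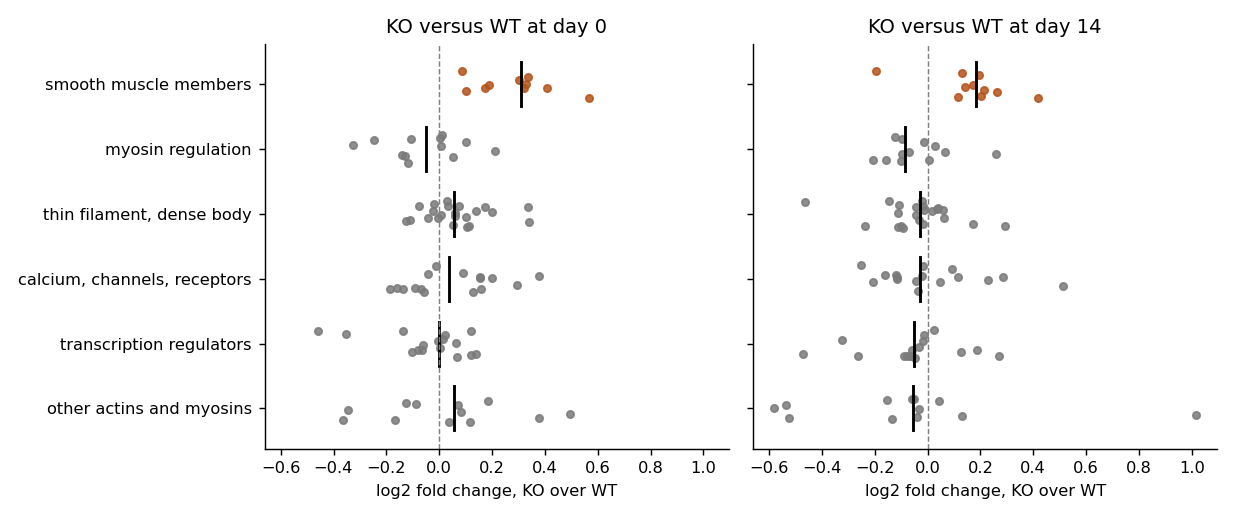
Log2 fold change of KO over WT at day 0 and day 14 for the 10 smooth muscle genes (orange) and for 5 lists of related genes (grey), each point 1 gene and each black bar a list's median. Medians of the 10 genes are 0.31 and 0.18; those of the other lists lie between -0.09 and 0.06.

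Markers of other cells also differed in sign between the genotypes. Summed over the 10 genes, smooth muscle RNA ran from 835 to 1031 CPM in WT and 1092 to 1127 in KO at day 0, and from 849 to 1003 in WT and 925 to 1181 in KO at day 14. All 11 of 11 airway epithelium markers had a positive log2 fold change in KO at both days (medians 0.21 and 0.23; 0 called by edgeR, 1 and 3 at an unadjusted p under 0.05, DESeq2 0 and 1, limma-voom 0 and 0). Over all genes 6.74% and 8.95% were at an unadjusted p under 0.05, in either direction, and DESeq2 called 0.133% and 0.557%. The summed level of the airway markers ran from 15136 to 18983 CPM in WT and 16734 to 20785 in KO at day 0, and from 15505 to 19861 and 17162 to 22880 at day 14. KO day 14 library 1 had the highest sum of both kinds.

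Heart and pulmonary vein muscle went the other way. Of its 14 markers, 12 were negative at day 0 and 13 at day 14 (medians -0.16 and -0.31), with 0 called by edgeR, 0 and 7 at an unadjusted p under 0.05, DESeq2 0 and 1, and limma-voom 0 and 0. The shares over all genes were 6.74% and 8.95% at an unadjusted p under 0.05, and 0.133% and 0.557% by DESeq2. The sum of the 14 markers ran from 1315 to 1614.5 CPM in WT and 1064 to 1565 in KO at day 0, and from 1370.1 to 2427 in WT and 1060.1 to 1676.5 in KO at day 14. Des and Synpo2 are also made by heart muscle, and its part in the values of any of the 10 genes was not tested. The library with the highest heart sum, WT day 14 library 5, also had the highest Myocd, at 5.01 CPM. The lowest Myocd, 2.32 CPM, was in WT day 14 library 2, at a heart sum of 1648. Of 7 fat markers, 6 were positive at day 0 (median 0.88) and 3 at day 14 (median -0.02), and KO day 0 library 2 held 178 CPM of them against 71.9 in library 1 and 51.3 to 75.1 in WT. At an unadjusted p under 0.05 were 4 of the 7 at day 0 and 0 at day 14, and edgeR called 0 at either day.

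The nearest neighbours of smooth muscle showed smaller medians. Of 9 pericyte markers, 7 were positive at day 0 and 4 at day 14 (medians 0.08 and -0.01), and of 11 fibroblast markers 7 and 5 (medians 0.10 and -0.01). Of 8 large vessel endothelium markers, 3 were positive at each day (medians -0.12 and -0.07), of 6 mesothelium markers 4 and 6 (0.10 and 0.17), and of 5 tested nerve and Schwann cell markers 3 and 2 (0.11 and 0.00). Of 6 tested skeletal muscle markers, 2 were positive at day 0 and 6 at day 14 (medians -0.22 and 0.48), where KO library 5 held the most. At an unadjusted p under 0.05 were 0 of the 8 large vessel endothelium markers at day 0 and 4 at day 14. Of those 4, 1 was higher and 3 were lower in KO. The counts were 0 and 3 for skeletal muscle, 0 and 1 for pericytes, and 1 and 1 for fibroblasts. They were 0 and 0 for mesothelium and for nerve and Schwann cells. Over all genes the shares were 6.74% and 8.95%. Neither edgeR nor DESeq2 called a marker of these lists at either day. Cartilage markers, 8 in all, were too low to be tested, at 0.18 to 1.18 summed CPM. The part of any of these in the smooth muscle values was not tested.

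**Figure D5:**
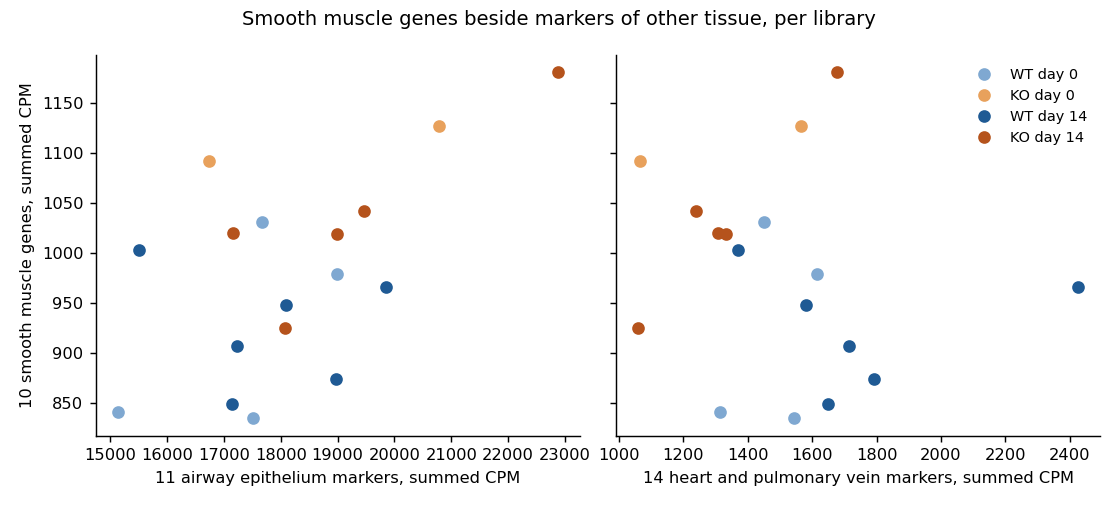
Summed CPM of the 10 smooth muscle genes in each library (vertical axis, not starting at 0) against the summed CPM of 11 airway epithelium markers (left) and of 14 heart and pulmonary vein muscle markers (right), coloured by group. KO day 14 library 1 is highest for smooth muscle, at 1181, and for airway markers, at 22880.

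Across the 17 libraries the 9 genes other than Smtn varied together to differing degrees. Likeness is given as Pearson's r of log2 CPM over the 17 libraries, as a description, since the libraries share genotype and day. Acta2 and Actg2 were the closest pair (r = 0.92, Spearman's rank correlation 0.90, and r = 0.86 with the group means taken out). Acta2 was the most typical of the 10, with a median r of 0.78 to the other 9, and Myocd the least among those that followed, at 0.45.

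Smtn had a median r of -0.01 to the other 9, from -0.22 with Synpo2 to 0.35 with Myocd. With the group means taken out, so that only differences between libraries of 1 group remain, its r ran from 0.33 with Actg2 to 0.70 with Myocd. Its sign differed from that of the other 9 in KO over WT at day 14 and in the average over the days, and not at day 0.

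The genes outside the 10 whose pattern was most like the mean of the 10 (each scaled over libraries) were Nek11, a kinase of the cell cycle (r = 0.89), Cfap45, a protein of motile cilia (r = 0.86), Aoc3, the amine oxidase of vascular smooth muscle (r = 0.84), Tpm2, the beta tropomyosin of muscle thin filaments (r = 0.83), Cdh3, P-cadherin (r = 0.82), Trp73, a regulator of ciliated cells (r = 0.81), Cygb, the oxygen-binding cytoglobin (r = 0.81), Slc8a2, a sodium-calcium exchanger (r = 0.80), Wdr66, a cilium protein (r = 0.80), and RP23-222K9.3 (r = 0.79). Spearman's rank correlation for these ranged from 0.72 for Trp73 to 0.88 for Nek11 and Tpm2. Without the libraries farthest from the median, KO day 14 library 1 and WT day 0 library 1, r stayed between 0.71 for Trp73 and Wdr66 and 0.90 for RP23-222K9.3. The median r over all tested genes was -0.02, and 8 genes outside the 10 reached 0.8. Tpm2, at 71.2 CPM, stood at 0.34 (SE 0.116) in KO over WT at day 0 and 0.29 (SE 0.0816, edgeR adjusted p = 0.271) at day 14.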

How the data were processed

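Lung RNA of 17 libraries in 4 groups of genotype and day was sequenced, and groups were taken from the sample labels. Reads were not aligned again. Per the submitters' processing notes, STAR 2.5.3, RSEM 1.3.0 and limma 3.38.3 were used with build mm10; the annotation and strand setting are not given in the sources used here. The authors deposited 1 column of expected counts per library for 54146 genes, a unit read from the values, 13.9 to 17.1% of which were not whole, and a joint table of FPKM. Members were found by symbol and joined by gene ID.

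Expected counts were rounded. Genes were filtered by filterByExpr on group, leaving 19557, and scaled by TMM factors of 0.977 to 1.01. One edgeR 4.0.16 quasi-likelihood model (robust) with all 4 groups gave each log2 fold change, its SE, a 95% interval and a two-sided p, adjusted by Benjamini-Hochberg over all genes tested; a gene was called under 0.05. CPM are TMM-scaled. Likeness used log2 CPM with a prior count of 2. Alternatives were RLE size factors, no filter, DESeq2 1.42.0, limma-voom (limma 3.58.1), limma-trend on log2(FPKM + 1) and on log2(FPKM + 0.1) of the deposited values, 2-group fits and leaving out each library in turn. The log2 scale with a pseudocount understates changes of low genes. The code was tested on simulated data. No 2 libraries of a group were copies: the chi-square per gene between them was 11.4 to 62.9.

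Sequences came from RefSeq windows (GRCm38.p6) and coordinates from GENCODE M21 on GRCm38, the assembly that mm10 names. Proteins were not analysed here. Named beside the 10 members were Clic4, called genes of each list or otherwise its 4 with the highest mean CPM, and the 10 genes most like the members; others are marked as singled out. One gene under this rule is not reported here. Members, gene lists and rules were chosen with earlier results of these data known. R 4.3.3 was used, with pandas and matplotlib for sequences and plots.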

Additional observations from a re-analysis of the deposited data

Results flagged for a closer look

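Within groups of 4 to 6 libraries, the highest or lowest library stood off from the rest beyond Dixon's 95% limit in 3 of 30 sets of values (10 genes in 3 groups), where chance gives about 1 in 20. Tagln was high in WT day 14 library 3, at 206 CPM against 152 to 164 in the other 5. Without that library its log2 fold change of KO over WT at day 14 was 0.22 in place of 0.14. Myocd was high in WT day 14 library 5, at 5.01 CPM against 2.32 to 3.26. Without it the day 14 log2 fold change of Myocd was 0.28 in place of 0.11, with an edgeR adjusted p that stayed above 0.05. Myocd was low in KO day 14 library 4, at 2.95 CPM against 3.48 to 3.68.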

How the results depend on the processing

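Of the 10 genes, edgeR called 0 in each comparison. DESeq2 called 1 for KO against WT at day 0 (Lmod1), 1 for the days in KO (Smtn) and 2 for the average over the days (Des and Lmod1); without a filter on low counts the average also gave 2 (Des, adjusted p = 0.0347, and Lmod1, 0.0433). Leaving out 1 library gave 0 to 1 for the average: Des without WT day 0 library 2 (adjusted p = 0.0296) or KO day 14 library 2 (0.0433), and Lmod1 without KO day 14 library 5 (0.0145). The cause was not tested. All 10 values of KO over WT at day 0 stayed positive under every setting but one, Myocd without KO day 0 library 2. Over all genes, DESeq2 called 26, 109, 113, 93, 9 and 136 genes (day 0, day 14, days in WT, days in KO, interaction, average) where edgeR called 5, 21, 0, 0, 0 and 20; limma-voom called 3 at day 0, and the fit of the 2 groups alone 13. Leaving out WT day 14 library 5 gave 22 for the days in WT, and leaving out KO day 14 library 2 gave 12 for the days in KO.

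Signs turned for 6 of the 10 genes over the days or in the interaction, and for Myocd also between the genotypes. Myocd over the days in WT was 0.00145 with RLE factors, 0.000456 without a filter, 0.00055 by DESeq2, 0.000114 with 2 groups, 0.0767 on log2(FPKM + 1) and 0.146 on log2(FPKM + 0.1). Its interaction was 0.0217 by limma-voom, and its day 14 value -0.0566 and -0.105 on the 2 FPKM scales. Leaving out 1 library, the values ranged as follows. Over the days in WT: Acta2 -0.0290 to 0.114, Tagln -0.144 to 0.0123, Myh11 -0.0927 to 0.0125, Actg2 -0.159 to 0.0729 and Myocd -0.166 to 0.0872. Over the days in KO: Acta2 -0.0913 to 0.0225, Tagln -0.237 to 0.0550, Des -0.0675 to 0.0228, Actg2 -0.0308 to 0.132 and Myocd -0.401 to 0.343. For the interaction: Tagln -0.167 to 0.123, Actg2 -0.0267 to 0.204 and Myocd -0.399 to 0.343. Myocd in KO over WT at day 0 ranged from -0.228 to 0.513, and averaged from -0.0563 to 0.313. The group of 2 KO libraries at day 0 limits every value that rests on it; without one of them, the other is assumed to vary like the other groups. No paired analysis was possible because the libraries carry no numbers that the groups share.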
